A study of Mus musculus with 44 samples.

Results

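Il7r, Kit and Flt3 encode the growth factor receptors that early B cell progenitors depend on, and their RNA was followed here across lymphomas of Eµ-myc mice. The members were the 5 probe sets annotated to these genes by symbol, 2 for Il7r, 2 for Kit and 1 for Flt3, out of 20380 probe sets with 1 gene symbol. They are 3 of the 12393 genes on the array. All 3 passed a filter on low values, under which a gene had to exceed the median of its column set on 1 array or more. It kept 8619 genes over the lymphomas and 8721 with the spleen. Kit passed it among the lymphomas only through 1 tumour, D161.

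Total RNA had been hybridised to Affymetrix mouse arrays, 1 array for each of 44 samples, and levels are RMA values in log2 units. The 2 groups were 1 sample labelled spleen (D168) and 43 samples labelled lymphoma, all of the genotype Eµ-myc, in which an immunoglobulin heavy chain enhancer drives Myc in B cells from early stages on. The labels give no treatment, age, sex or animal, and do not say whether the spleen held tumour, so p-values measure the spread between these samples. Lymphomas are named by the D number in their titles. The columns fall into 2 sets, set 1 with 36 lymphomas (D34 to D117, column medians 6.21 to 6.45) and set 2 with 7 lymphomas (D121 to D163) and the spleen (medians 6.85 to 7.01). The set was held fixed in every test. B cell identity by Cd79a, a signalling chain of the B cell receptor, was 8.92 in the spleen, and in the lymphomas it ran from 6.42 (D92) to 11.99 (D107) in set 1 and from 9.08 (D121) to 11.95 (D161) in set 2. In bulk RNA, fewer cells of a type and less RNA per cell cannot be told apart.

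IL-7 receptor alpha, the product of Il7r, pairs with the common gamma chain and signals through JAK1, JAK3 and STAT5. It carries pro-B and large pre-B cells through proliferation, and it also serves T cells and innate lymphoid cells. KIT binds stem cell factor and FLT3 binds FLT3 ligand. Both are receptor tyrosine kinases of class III. KIT marks haematopoietic stem cells, mast cells and erythroid progenitors and is found on pro-B cells. FLT3 marks lymphoid progenitors and dendritic cells, and PAX5 represses its gene when B cells commit.

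The promoters of the 3 genes are shown because the RNA of Runx1, a RUNX family factor of blood progenitors, moved with 2 of them below. It was not called with Il7r without D161, nor with Kit within the 40 lymphomas of lower Kit. Each run holds 250 bases before to 50 after the start of transcription in RefSeq (GRCm38.p6), at chr15:9529827-9530126 on the minus strand for Il7r, chr5:75574737-75575036 on the plus strand for Kit and chr5:147400440-147400739 on the minus strand for Flt3. Capitals mark matches, on either strand, to an E-box (CACGTG), an ETS site (GGAAGT or ACTTCC) and a RUNX site (TGTGGT or ACCACA), which were chosen after the sequences were seen.
Il7r: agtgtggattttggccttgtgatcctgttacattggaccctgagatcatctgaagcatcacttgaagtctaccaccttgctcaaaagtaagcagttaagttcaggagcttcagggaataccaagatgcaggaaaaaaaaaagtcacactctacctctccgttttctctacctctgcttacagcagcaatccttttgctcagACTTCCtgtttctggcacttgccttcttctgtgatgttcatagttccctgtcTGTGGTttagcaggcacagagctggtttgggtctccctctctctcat
Kit: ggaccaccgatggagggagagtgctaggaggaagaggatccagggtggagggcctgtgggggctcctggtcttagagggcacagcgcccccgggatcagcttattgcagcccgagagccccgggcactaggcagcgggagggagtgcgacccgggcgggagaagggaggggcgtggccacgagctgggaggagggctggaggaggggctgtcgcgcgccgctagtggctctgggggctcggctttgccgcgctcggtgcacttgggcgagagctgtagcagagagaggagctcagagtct
Flt3: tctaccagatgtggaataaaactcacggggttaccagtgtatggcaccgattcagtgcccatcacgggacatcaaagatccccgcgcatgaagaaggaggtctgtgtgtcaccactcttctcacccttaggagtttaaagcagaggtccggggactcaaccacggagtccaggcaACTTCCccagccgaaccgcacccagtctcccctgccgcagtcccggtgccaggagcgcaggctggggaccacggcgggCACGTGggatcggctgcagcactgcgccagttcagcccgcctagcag
The Il7r window held an ETS match beginning 49 bases before the start and a RUNX match beginning 3 bases after it. The Flt3 window held an ETS match 75 bases before the start and an E-box 3 bases after it, and the Kit window held none of these letters. Of 27025 promoters of the same length, 24.1% held the ETS letters, 16.9% the RUNX letters and 7.24% the E-box. These matches are descriptions of the sequence, and no binding was measured.

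Il7r varied widely between lymphomas. By probe set 1448575_at its level was 7.51 in the spleen. In set 2 the lymphomas had 6.79 (D151), 7.30, 7.57, 9.05, 9.79, 10.07 and 12.02 (D161). In set 1 they ran from 6.30 (D55) through a median of 8.59 to 10.90 (D47). The spleen lay inside the range of both sets. Of the 36 lymphomas of set 1, 13 lay over 1 log2 unit above their median and 10 over 1 unit below it, and the range of 4.60 log2 units was 24.3-fold. Probe set 1448576_at followed the first with r = 0.992 over 43 lymphomas (description, as both read the same gene). It gave 5.45 in the spleen, 5.23 to 10.31 in set 2 and 4.38 to 9.59 in set 1. The SD of Il7r about its set means was 1.47, above that of 98.3% of 8619 genes, whose median SD was 0.34. Without the 2 lymphomas farthest from the median it was 1.37.

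Kit was flat in most lymphomas and raised in a few. By probe set 1452514_a_at its level was 8.38 in the spleen. Set 2 lymphomas ran from 5.29 (D135) through a median of 5.45 to 8.55 (D161), and set 1 lymphomas from 3.58 (D62) through 4.18 to 5.80 (D59). Only D161 lay above the median of all probe sets of its columns, and only D161, D59 (5.80) and D78 (5.66) lay over 1 log2 unit above their set's median. A 2-component mixture split the lymphomas into 40 and these 3. The other Kit probe set, 1415900_a_at, varied little, at 5.4 in the spleen, 4.92 to 5.62 (D161) in set 2 and 4.12 to 4.75 in set 1. By it 0 lymphomas lay above the median of all probe sets of their columns. The probe sets disagreed in D59 and D78, where the second gave 4.47 and 4.40. Their r was 0.42 over 43 lymphomas and 0.062 without D161. The SD of Kit was 0.61, and 0.37 without its 2 farthest lymphomas.

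Flt3 was low in most lymphomas with a long upper tail. Its probe set 1419538_at gave 6.81 in the spleen, 6.46 (D135) through a median of 6.69 to 8.65 (D121) in set 2 and 5.82 (D81) through 6.36 to 10.79 (D92) in set 1. After D92 the highest in set 1 were D55 at 9.19, D53 at 8.21 and D78 at 7.99, and after D121 in set 2 came D163 at 8.16. Over 1 log2 unit above their median lay 5 lymphomas of set 1 and 2 of set 2, and 0 lay that far below. The range in set 1 was 4.97 log2 units or 31.4-fold, and the SD was 0.98, or 0.64 without the 2 farthest lymphomas. The mixture did not separate 2 components of Flt3 or of Il7r by the limits set.

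**Figure D1:**
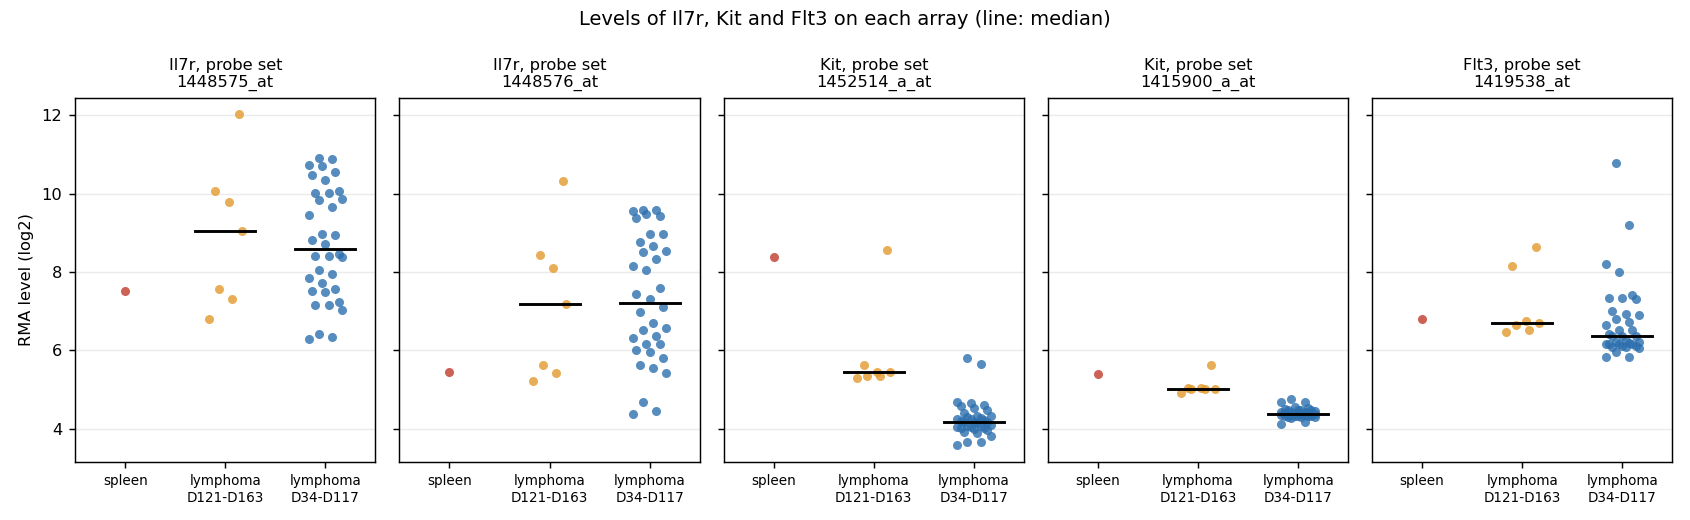
RMA level in log2 units (y axis) of the 5 probe sets of Il7r, Kit and Flt3, 1 point per array, for the spleen, the lymphomas D121 to D163 and the lymphomas D34 to D117, with black lines at the medians. Il7r spreads over 4.60 log2 units in the larger set, Kit by 1452514_a_at stands out in the spleen (8.38) and D161 (8.55), and Flt3 has a tail up to 10.79.

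In the spleen, 1 array, Kit lay above every lymphoma but D161, and the other receptors were not called. The probe set used for Kit, 1452514_a_at, was chosen by its mean over all 44 arrays, the spleen included. Set 1 lymphomas averaged 4.25 by it and 4.41 by 1415900_a_at. Such a choice favours a probe set that is high in the spleen, so the Kit difference below is not independent of it. Kit was 8.38 in the spleen and averaged 5.87 ± 1.19 (SD, n = 7) in the set 2 lymphomas, and the fitted difference was 2.51 ± 0.65 (SE) with an adjusted p of 0.00613 (limma), which places 1 value against the spread of the lymphomas and leaves out the spread between spleens. D161 had 8.55, and without it the difference was 2.96 with an adjusted p of 4.61e-06. With the 7 set 2 lymphomas alone the adjusted p was 0.183, and by 1415900_a_at the difference was 0.31 ± 0.16 with an adjusted p of 0.231 over probe sets. Il7r differed by -1.43 ± 1.54 (adjusted p = 0.58) and Flt3 by -0.32 ± 1.03 (adjusted p = 0.87), which leaves differences of over 1 log2 unit either way within a pair of standard errors. The background was 7.60% of 8721 genes higher in the spleen and 5.79% lower, and the median difference of all genes was -0.16. The counts were 663 and 505, against 594 and 776 with columns scaled to equal medians and 1207 and 41 without the set covariate.

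Genes of several blood lineages were higher in the spleen beside Kit. Of 9 erythroid genes on the array, 6 passed the filter only through the spleen, so that they had to differ, and the other 3 (Epor, Alas2 and Slc4a1) were called higher. Of the 6, Klf1, the red cell transcription factor, was 12.65 in the spleen and 4.49 to 5.97 in the lymphomas. The spleen's erythroid score, the mean of those 3 genes minus the lymphoma mean of its set, was 5.67, and that of the lymphomas ran from -0.22 to 0.77. Among genes that passed the filter in the lymphomas too, 8 of 10 neutrophil, 3 of 3 megakaryocyte, 5 of 15 macrophage and 4 of 14 stromal and endothelial genes were higher. Of 10 mast cell and basophil genes on the array 1 passed in the lymphomas, Gata2, a factor of both lineages and of blood progenitors, higher by 0.73 ± 0.23 (adjusted p = 0.0249). Another 2 passed only through the spleen. Hdc, which makes histamine, was 8.02 in the spleen and at most 6.43 in a lymphoma. Mcpt8, a basophil protease, was 7.68 in the spleen and at most 5.65 in a lymphoma. The 7 that did not pass ran from 4.45 (Fcer1a) to 5.68 (Tpsb2) in the spleen, against 3.94 to 5.97 in the set 2 lymphomas. The part of such cells in the Kit level was not tested.

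Genes listed as acting below these receptors differed in part in the spleen, where 7.60% of all genes were higher. The STAT5 targets lay above that share, with a median difference of 1.2 against -0.16 for all genes. Of 11 STAT5 target genes 3 were higher, Bcl2l1, which blocks cell death, by 2.72 ± 0.30 (adjusted p = 1.37e-09), Cish, a feedback inhibitor, by 2.08 ± 0.35 (adjusted p = 2.48e-05) and the kinase Pim1 by 2.25 ± 0.60 (adjusted p = 0.00815). In the IL-7 signalling list 1 of 11 was higher, Pik3r1, a PI3-kinase subunit, and in the KIT and FLT3 signalling list 1 of 17, Gab1. Of 15 other cytokine receptors 2 were higher, the erythropoietin receptor Epor by 3.08 ± 0.16 and Csf3r by 1.61 ± 0.34. These last 3 shares lay near that of all genes. None of these 4 lists held a gene that was lower (limma, all 8721 genes). Il7r and Flt3 themselves were not called in the spleen. The part of erythroid or other cells in these differences was not tested.

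The receptors were not called as pairs in the permutation tests over lymphomas. Among the 40 lymphomas of the lower Kit component, Il7r with Kit gave r = 0.288 and rho = 0.336 (permutation p = 0.0761, adjusted over 30 relations 0.176), with 0.281 in set 1 (n = 34) and 0.48 in set 2 (n = 6). Flt3 with Il7r gave r = -0.18 and rho = 0.074 over 43 lymphomas (permutation p = 0.26, adjusted 0.369), with -0.175 in set 1 and -0.214 in set 2. Flt3 with Kit gave r = -0.112 and rho = -0.086 over 40 (permutation p = 0.498, adjusted 0.598). Without the 2 lymphomas that lay farthest out, the sign of both Flt3 relations turned, to 0.055 and 0.064.

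The top lymphoma was the same for Il7r and Kit and another for Flt3. D161 had the highest Il7r and Kit with Flt3 at 6.76, near the median of its set. D59 had high Il7r (10.88) and Kit raised for its set (5.80) with Flt3 at 6.72. D78 had Kit raised for its set (5.66) and high Flt3 (7.99) with Il7r at 8.98. Kit in D59 and D78 lay below the median of all probe sets of set 1 (6.28), and the other Kit probe set gave 4.47 and 4.40. The 3 lymphomas with the highest Flt3 above their set mean had Il7r below their set mean, at 7.23 in D92, 6.30 in D55 and 7.57 in D121. Their Kit was 3.89, 4.06 and 5.45.

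**Figure D2:**
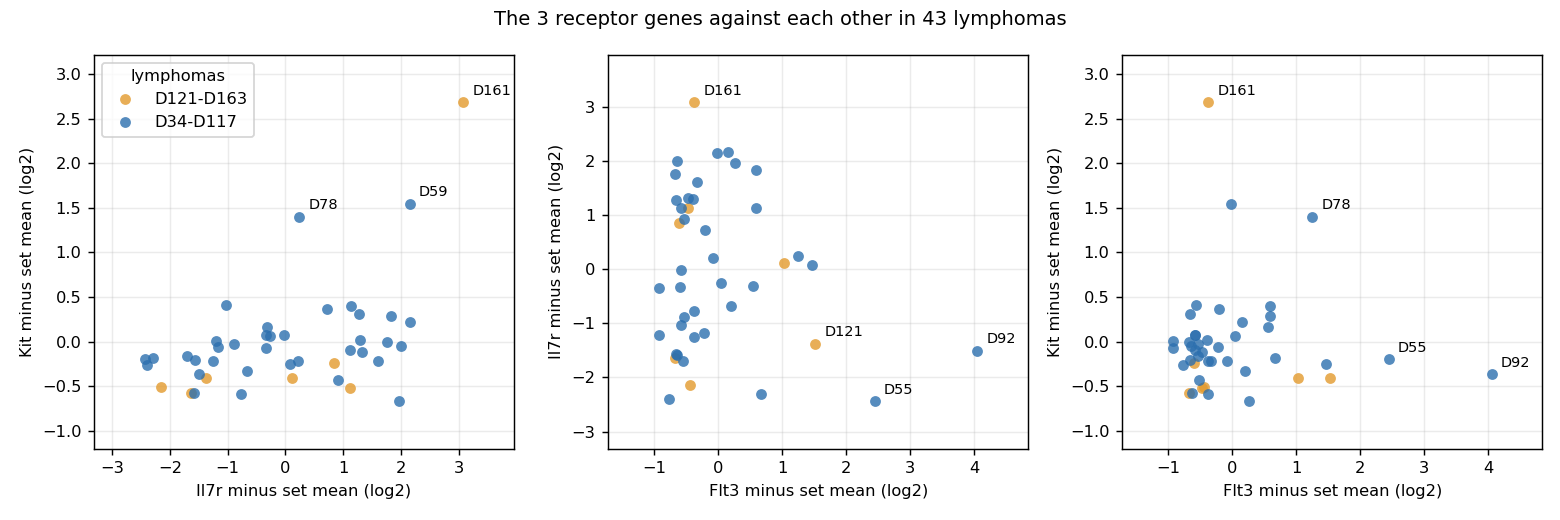
Values minus the set mean in log2 units for Kit against Il7r, Il7r against Flt3 and Kit against Flt3, 1 point per lymphoma (43), coloured by column set. D161 lies alone at the top of Il7r (3.08) and Kit (2.69), and D92 alone at the end of Flt3 (4.05).

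With Il7r, genes of B cell precursors rose and genes of mature B cells fell in part. In the regression over 43 lymphomas, 105 of 8618 genes rose with Il7r (1.22%) and 75 fell (0.870%), 2.09% in all, against 66 and 18 without the set covariate. Of 12 pro-B and pre-B genes 3 rose. The surrogate light chain genes Vpreb1 and Igll1, parts of the pre-B cell receptor, rose by 0.83 ± 0.18 (SE, adjusted p = 0.00794) and 0.73 ± 0.17 (adjusted p = 0.0104) per log2 unit of Il7r. Lef1, a transcription factor of pro-B and T cells, rose by 0.64 ± 0.09 (adjusted p = 2.17e-05). Of 14 lymphoid progenitor genes 5 rose, Runx1 by 0.20 ± 0.04, Erg by 0.24 ± 0.05, Tal1 by 0.16 ± 0.04, Satb1 by 0.41 ± 0.11 and Notch1 by 0.24 ± 0.07. Of 11 mature B genes 3 fell, the CD20 gene Ms4a1 with a slope of -0.69 ± 0.17, the egress receptor S1pr1 with -0.24 ± 0.07 and its activator Klf2 with -0.36 ± 0.08. The medians over the tested genes were 0.53 for the pro-B list, 0.12 for the progenitor list and -0.05 for the mature list, against 0 for all genes.

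Signalling genes were not called with Il7r, where 2.09% of all genes were, so that a count of 0 in a list of this size says little. Of 11 tested IL-7 signalling genes 0 were called (limma, where 1409 of all genes had an unadjusted p under 0.05), and the nearest was Jak1 at 0.16 (adjusted p = 0.056). Stat5a and Stat5b had slopes of -0.02 and 0.04. Il7 and Tslp, the ligands, did not pass the filter. Of 11 STAT5 targets only Ccnd3, a D-type cyclin of pre-B cells, was called, at 0.29 ± 0.07 (adjusted p = 0.00976), and Cish, Socs1 and Pim1 had slopes of 0.03 to 0.06. In the list of other cytokine receptors 0 of 15 were called.

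Without D161 many of these calls were lost while most slopes stayed of similar size. In that fit 31 genes rose (0.360%) and 21 fell (0.244%), 30 and 21 of them among the earlier calls. Lef1 then remained of the 3 pro-B genes (0.63, adjusted p = 0.000228), and 0 of the 5 progenitor genes, 0 of the 3 mature genes and not Ccnd3. The slopes were then 0.16 for Runx1, 0.18 for Erg, 0.36 for Satb1, 0.22 for Notch1 and 0.26 for Ccnd3, and 0.08 for Tal1. They were -0.63 for Ms4a1, -0.25 for S1pr1 and -0.34 for Klf2, with adjusted p of 0.054 to 0.182 over these 9 genes. Vpreb1 had 0.66 with an adjusted p of 0.0803 and Igll1 0.56 with 0.104. D161 had the highest pro-B and pre-B score of all lymphomas (3.28) and the highest progenitor score (0.62), with a T cell score of -0.58 and a macrophage score of -0.89.

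The genes most like Il7r held without D161. The 10 most alike were Mpp1, Pbxip1, Lef1, Ap3s1, Igfbp4, Pnp, Pcmtd1, Dgka, Sigirr and Ralb, with r of 0.65 to 0.77 over 43 lymphomas, and the 5 most opposed were Nacc2, Map4k1, Serp1, B3gnt5 and Slc15a4, with r of -0.72 to -0.63. All 15 passed the threshold without D161 too. Igfbp4, which binds insulin-like growth factors, had a slope of 0.80 ± 0.11 (r = 0.73, 0.69 in set 1 and 0.91 in set 2). Pbxip1, a partner of PBX factors, had r = 0.77, with 0.73 in set 1 and 0.88 in set 2. Pnp is an enzyme of purine salvage, Dgka removes diacylglycerol, and Sigirr dampens interleukin-1 family signals. Map4k1, a kinase that dampens antigen receptor signals, had a slope of -0.23 ± 0.03 (r = -0.71, adjusted p = 7.99e-05).

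With Kit, 272 of 8618 genes rose (3.16%) and 188 fell (2.18%), against 84 and 86 with columns scaled to equal medians and 5938 and 21 without the set covariate. Within the 40 lymphomas other than D161, D59 and D78, 0 genes were called (limma, lowest adjusted p 0.41), and 944 had an unadjusted p under 0.05. Without D161 alone, 908 rose (10.5%) and 1043 fell (12.1%). The slopes below describe 3 lymphomas against 40.

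S100a16, a calcium-binding protein gene, was the most alike, with a slope of 1.07 ± 0.08 (adjusted p = 6.27e-13). Its level was 10.51 in D161, 9.23 in D59 and 7.47 in D78, against medians of 6.97 in set 2 and 6.32 in set 1. Gab1, a docking protein of receptor tyrosine kinases, was 8.20 in D161, 6.94 in D59 and 5.47 in D78, against medians of 5.73 and 4.79, with a slope of 0.71 ± 0.08 (adjusted p = 1.36e-07). Kdr, the VEGF receptor of endothelium, was 7.77 in D161, 8.19 in D59 and 6.61 in D78, against medians of 5.78 and 5.31, with a slope of 0.81 ± 0.10 (adjusted p = 2.19e-07). All 3 genes lay above the median of the lymphoma's own set in each of these lymphomas. They were named for their fit on Kit, which these lymphomas carry, so this is not separate support. The others of the 10 most alike were C1qtnf6, Plvap, Ppic, Ajuba, Efhd1, Cmtm8 and Wls, and the 5 most opposed were Zfp593, Lss, Rdh13, Fcrla and Preb. Of these 15, 14 passed without D161, with Efhd1 the exception (0.07, adjusted p = 0.548), and 0 passed within the 40.

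Stromal genes moved with Kit. Of 14 stromal and endothelial genes 6 rose, against 3.16% of all genes, and 13 rose without D161 (10.5% of all genes). Of 15 macrophage genes 0 rose with D161 and 9 without it. Among the 6 were Cxcl12, a chemokine of marrow stroma, with a slope of 1.33 ± 0.34 (adjusted p = 0.0214) and Bgn, a matrix proteoglycan, with 0.97 ± 0.26 (adjusted p = 0.0251). The median slope of the list was 0.79, against -0.02 for all genes. The stromal score was 4.64 in D59, the highest, and 2.12 in D78, but 0.06 in D161. The range over all lymphomas was -0.76 to 4.64. The macrophage score was 3.11 in D59, 1.27 in D78 and -0.89 in D161. Of the mast cell and basophil genes, 1 of 10 passed the filter, Gata2, at 6.27 in D161, 6.33 in D59 and 6.14 in D78, against medians of 6.43 in set 2 and 5.93 in set 1. Cpa3, a mast cell protease, was 5.14 in D161, the lowest of set 2, and 5.35 in D59 and 4.65 in D78, against a set 1 range of 4.57 to 5.51. The part of other cells in these Kit levels was not tested.

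Among progenitor genes 3 of 14 rose with Kit, Tal1 by 0.47 ± 0.08 (adjusted p = 0.000392), Runx1 by 0.49 ± 0.10 (adjusted p = 0.0054) and the stem cell marker Cd34 by 0.64 ± 0.20 (adjusted p = 0.0448). In the KIT and FLT3 signalling list 2 of 17 rose, Gab1 and the kinase Fyn (0.63 ± 0.19, adjusted p = 0.0391). The ligand gene Kitl had a slope of 0.13 (adjusted p = 0.24). Of the other class III receptor genes Pdgfra rose by 0.69 ± 0.20 and Csf1r (0.65, adjusted p = 0.165) and Pdgfrb (0.31, adjusted p = 0.0557) were not called. Jak1 of the IL-7 list rose by 0.40 ± 0.11 and Ccnd3 by 0.55 ± 0.17. Il7r itself rose by 1.12 ± 0.33 per log2 unit of Kit (adjusted p = 0.0379, and not called within the 40), and Flt3 had a slope of -0.03 ± 0.25.

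**Figure D3:**
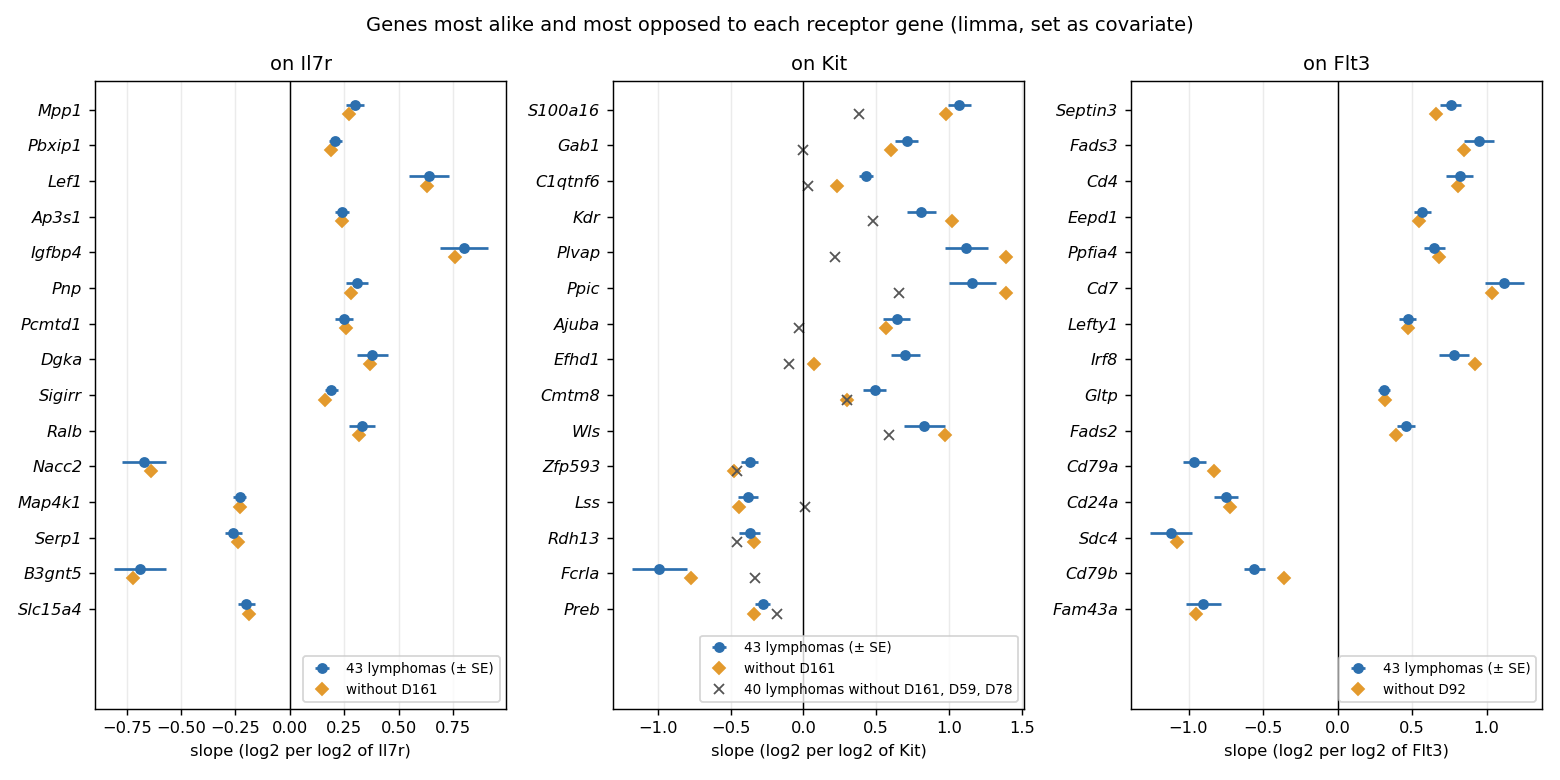
Slopes in log2 per log2 unit of Il7r, Kit or Flt3 (x axis) of the 10 genes most alike and the 5 most opposed to each, as circles with SE over 43 lymphomas, diamonds without D161 (Il7r, Kit) or D92 (Flt3), and crosses for the 40 lymphomas of the lower Kit component. Circles and diamonds lie on the same side of 0 for Il7r and Flt3, while for the 10 genes most like Kit the crosses lie left of the circles, as for Gab1 at 0.71 over 43 and 0 over 40.

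Flt3 ran against Cd79a and other pan B genes, but over all lymphomas the mature B genes did not follow as a list. With Flt3, 626 of 8618 genes rose (7.26%) and 872 fell (10.1%), against 529 and 127 without the set covariate. Cd79a was the gene most opposed, with a slope of -0.96 ± 0.08 per log2 unit of Flt3 (r = -0.89, rho = -0.56, adjusted p = 4.01e-12), and r was -0.88 in set 1 and -0.93 in set 2. In D92, D55 and D121, with the highest Flt3, Cd79a was 6.42, 8.83 and 9.08, against medians of 11.40 in set 1 and 11.45 in set 2. Of 7 pan B genes 4 fell, Cd79a, Cd79b, Cd37 and the kinase Btk, and 0 rose. Without D92, 3 of these 4 were called, and Btk was not (-0.17, adjusted p = 0.0572, limma). The pan B score was lowest in D92 (-2.04), and D59, D55 and D121 followed.

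Transcription factors of the B lineage split. Of 9 tested, 4 fell. Pax5, the commitment factor, had a slope of -0.32 ± 0.07, and Ebf1, which specifies the lineage, had -1.06 ± 0.17. Tcf3, which encodes the E2A proteins, had -0.42 ± 0.07 and the co-activator Pou2af1 -1.10 ± 0.15. Pou2af1 was 5.36 in D92 and 5.64 in D55, against a median of 11.76. Tcf4, the E protein of plasmacytoid dendritic cells, rose by 0.60 ± 0.10 (adjusted p = 8.29e-05) and Bcl11a by 0.42 ± 0.11 (adjusted p = 0.00856). Irf8, a factor of dendritic and germinal centre B cells, rose by 0.78 ± 0.10 (adjusted p = 2.98e-07), and Irf4, its relative of plasma cells and pre-B cells, fell by 0.69 ± 0.11 (adjusted p = 2.99e-05). All of these passed without D92 too.

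Of 12 pro-B and pre-B genes 3 fell with Flt3 and 0 rose. Cd24a, a surface glycoprotein of B cell precursors, had a slope of -0.75 ± 0.08 (adjusted p = 2.96e-08), Vpreb3 of -1.14 ± 0.22 and Cd93 of -0.95 ± 0.26. Cd24a was 8.74 in D55, 9.50 in D92 and 11.43 in D121, against medians of 12.95 in set 1 and 13.81 in set 2. In the progenitor list, 2 of 14 fell, Gfi1 and Myb, and 0 rose. Without D92 both still fell, and 2 rose, where 18.6% of all genes were called. The 2 were Lmo2 (0.82, adjusted p = 0.00564, limma) and Mef2c (0.49, adjusted p = 0.0135).

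Some T cell genes rose with Flt3. Of 15 T cell genes 5 rose, Cd8b1 by 1.39 ± 0.20 (adjusted p = 3.75e-06), Cd4 by 0.82 ± 0.09 (adjusted p = 1.49e-08), Thy1, Cd28 and Cd5. Cd7, of early T cells and natural killer cells, rose by 1.12 ± 0.13 (r = 0.79) and was 12.01 in D92, 11.47 in D55 and 11.50 in D121, against medians of 6.59 and 7.13. Cd4 was 9.86 in D92, 8.44 in D55 and 9.23 in D121, against medians of 6.15 and 6.45. Without D92, 10 of 15 T cell genes rose, and Cd3d (0.86, adjusted p = 0.0281) and Cd3e (0.39, adjusted p = 0.0403) of the T cell receptor complex were among them, while with D92 neither was called (0.32 and 0.16, adjusted p = 0.334 for both). In D92, D55 and D121 Cd3e was 6.40, 7.09 and 7.72, against medians of 6.90 and 7.43, and Cd3d was 6.13, 8.0 and 8.81, against medians of 7.49 and 8.15. The highest Cd3e was 8.89 in set 1 (D46) and 9.02 in set 2 (D163).

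Of 8 tested dendritic cell genes 4 rose, Batf3, a factor of conventional dendritic cells, by 0.49 ± 0.07 (adjusted p = 5.21e-06), the integrin gene Itgax by 0.72 ± 0.12 (adjusted p = 2.07e-05), Ccr9 and Clec10a. Batf3 was 8.23 in D92, 7.75 in D55 and 8.18 in D121, against medians of 5.81 and 6.53. Itgax was 9.88 in D92, the highest, 7.39 in D55 and 7.0 in D121, against medians of 6.31 and 6.67. Of the defining genes, Xcr1 and Zbtb46 did not pass the filter, and the levels of Xcr1 (4.45, 4.32 and 5.09) and of Zbtb46 (4.99, 5.13 and 5.21) stayed within 1 log2 unit of their medians of 4.29 and 5.0 in set 1 and 4.61 and 5.34 in set 2. Without D92, Ccr9 (0.48, adjusted p = 0.119) and Clec10a (0.24, adjusted p = 0.235) were not called. Of 8 MHC class II genes 4 rose, H2-Aa, H2-Ab1, H2-DMa and their activator Ciita. Of 15 macrophage genes 2 rose, Cd68 and Cd163, and Cd163 had a slope of -0.03 without D92. The macrophage score was -0.27 in D92, 0.21 in D55 and -0.24 in D121, inside a range of -1.27 to 3.11. Whether other cells in the samples took part in these slopes was not tested.

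Genes of cytokine signalling moved in part with Flt3, where 7.26% of all genes rose and 10.1% fell. Of 15 other cytokine receptors 6 rose, led by Il13ra1 (0.34 ± 0.07, adjusted p = 0.00039) and Csf2rb (0.61 ± 0.13, adjusted p = 0.00133), the shared beta chain of the IL-3, IL-5 and GM-CSF receptors. Il15ra fell by 0.31 ± 0.07 (adjusted p = 0.00237). Without D92, 4 of the 6 still rose, and Il15ra was not called (-0.23, adjusted p = 0.067, limma). In the IL-7 signalling list 3 of 11 rose, Stat3, Pik3cd and Ptprc, and Jak1, Stat5a and Stat5b were not called. In the KIT and FLT3 signalling list 2 of 17 rose and 1 fell, a share near the 17.4% of all genes called. Sla2, an adaptor that dampens receptor signals, rose by 0.35 ± 0.05 (adjusted p = 1.11e-05) with Fyn, and Shc1 fell. Of the STAT5 targets 1 of 11 fell, near the share of all genes. It was Socs2 (slope -0.72 ± 0.21, adjusted p = 0.0161), and without D92 its slope was -0.68 (adjusted p = 0.0826). Of 9 G2/M genes 7 fell, with slopes of -0.21 (Ttk) to -0.12 (Bub1), and 1 of them passed without D92, whose G2/M score of -0.86 was the lowest.

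The 10 genes most like Flt3 were Septin3, Fads3, Cd4, Eepd1, Ppfia4, Cd7, Lefty1, Irf8, Gltp and Fads2, with r of 0.78 to 0.85 over 43 lymphomas. Fads2 and Fads3 encode fatty acid desaturases, Gltp a glycolipid transfer protein and Lefty1 an inhibitor of Nodal. The 5 most opposed were Cd79a, Cd24a, the proteoglycan gene Sdc4, Cd79b and Fam43a, with r of -0.89 to -0.77. All 15 passed without D92, with r of 0.64 to 0.76 and -0.80 to -0.58. The ranks gave weaker values than the levels, with rho of 0.44 to 0.62 for the 10. Without D92, 740 genes rose and 865 fell (18.6% in all), of which 440 and 514 were among the earlier calls.

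**Figure D4:**
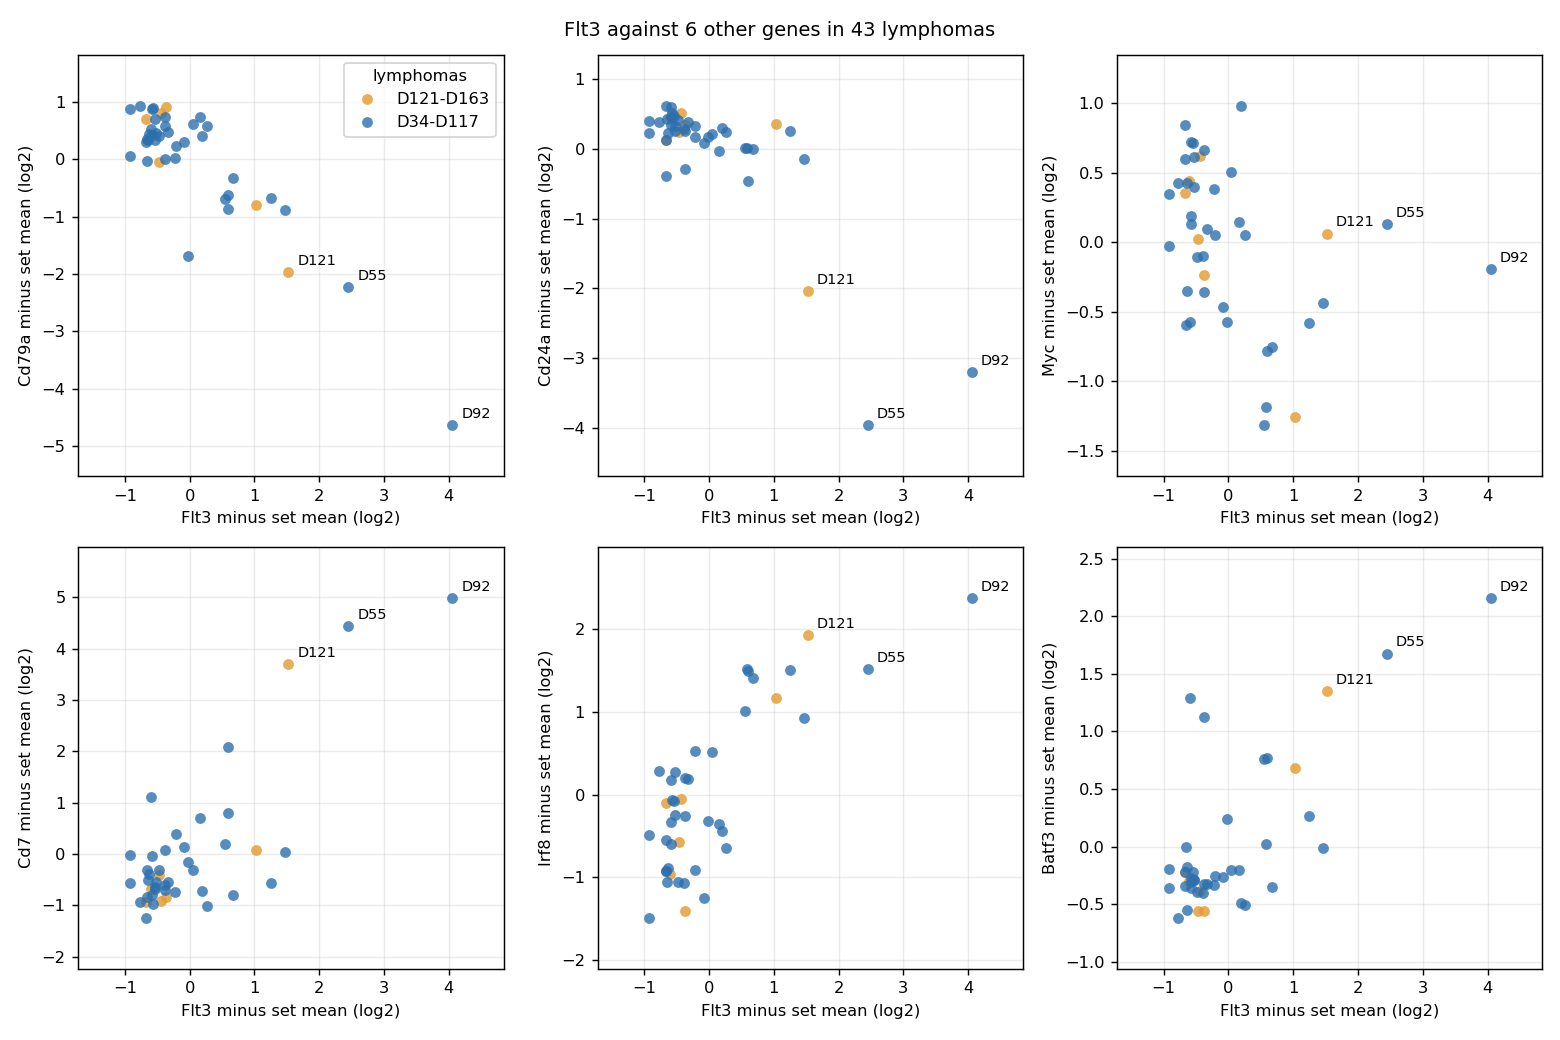
Values minus the set mean in log2 units of Cd79a, Cd24a, Myc, Cd7, Irf8 and Batf3 (y axes) against Flt3 (x axes), 1 point per lymphoma (43), coloured by column set. D92, D55 and D121 lie at the right with low Cd79a and Cd24a and high Cd7, and Irf8 is also raised in other lymphomas with Flt3 above their set mean.

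Scores of whole lists set the receptors apart in the same family of 30 relations, of which 5 passed. Il7r rose with the pro-B and pre-B score, r = 0.566 and rho = 0.467 (n = 43, permutation p = 0.00016, adjusted 0.0039), with 0.513 in set 1, 0.749 in set 2, 0.454 without the 2 farthest lymphomas and 0.494 without D161. Flt3 fell with that score, r = -0.435 and rho = -0.297 (permutation p = 0.0032, adjusted 0.024), with -0.427 in set 1, -0.507 in set 2 and -0.354 without the 2 farthest, where the adjusted p was 0.0916. Flt3 rose with the dendritic cell score, r = 0.581 and rho = 0.412 (permutation p = 0.00026, adjusted 0.0039), with 0.55 in set 1, 0.779 in set 2 and 0.422 without the 2 farthest. It rose with the T cell score, r = 0.46 and rho = 0.461 (permutation p = 0.0018, adjusted 0.018), with 0.389 in set 1, 0.89 in set 2 and 0.559 without the 2 farthest. It rose with the MHC class II score, r = 0.422 and rho = 0.354 (permutation p = 0.00563, adjusted 0.0338), with 0.371 in set 1, 0.732 in set 2 and 0.449 without the 2 farthest. Adding the T cell and macrophage scores as covariates left 3 relations of Flt3 uncalled, those with the dendritic cell score (0.42, adjusted p = 0.149), the MHC class II score (0.225, adjusted p = 0.335) and the pro-B and pre-B score (-0.30, adjusted p = 0.165). By rank, neither MHC class II (adjusted p = 0.0828, permutation) nor pro-B and pre-B (adjusted p = 0.129, permutation) was called. In set 1 alone the relations with MHC class II (adjusted p = 0.122), pro-B and pre-B (0.0818) and T cell scores (0.0995) were not called, and in set 2 alone none of the 5 was, over 7 lymphomas (exact permutation, adjusted p = 0.431 to 0.696). With equal column medians MHC class II had an adjusted p of 0.0505.

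In the main test Kit was not called with any of the 8 scores tested or with Myc. The nearest was the T cell score (r = 0.394, n = 40, permutation p = 0.0117, adjusted 0.0586). Under some alternatives that relation was called, as without the 2 farthest lymphomas (0.45, adjusted p = 0.023, permutation). It was not called with equal column medians (0.327, adjusted 0.146) or by rank (0.384, adjusted 0.0697). Kit with the MHC class II score was 0.376 (adjusted 0.0687), and 0.43 with the mean of probe sets (adjusted 0.0236). Myc, the driver oncogene, had r = -0.308 with Il7r (adjusted p = 0.119, permutation), -0.32 with Kit (adjusted 0.119) and -0.358 with Flt3 (adjusted 0.0687). Its rho with Flt3 was -0.433 (adjusted 0.0452, permutation), and without the 2 farthest lymphomas r was -0.529 (adjusted 0.01).

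**Figure D5:**
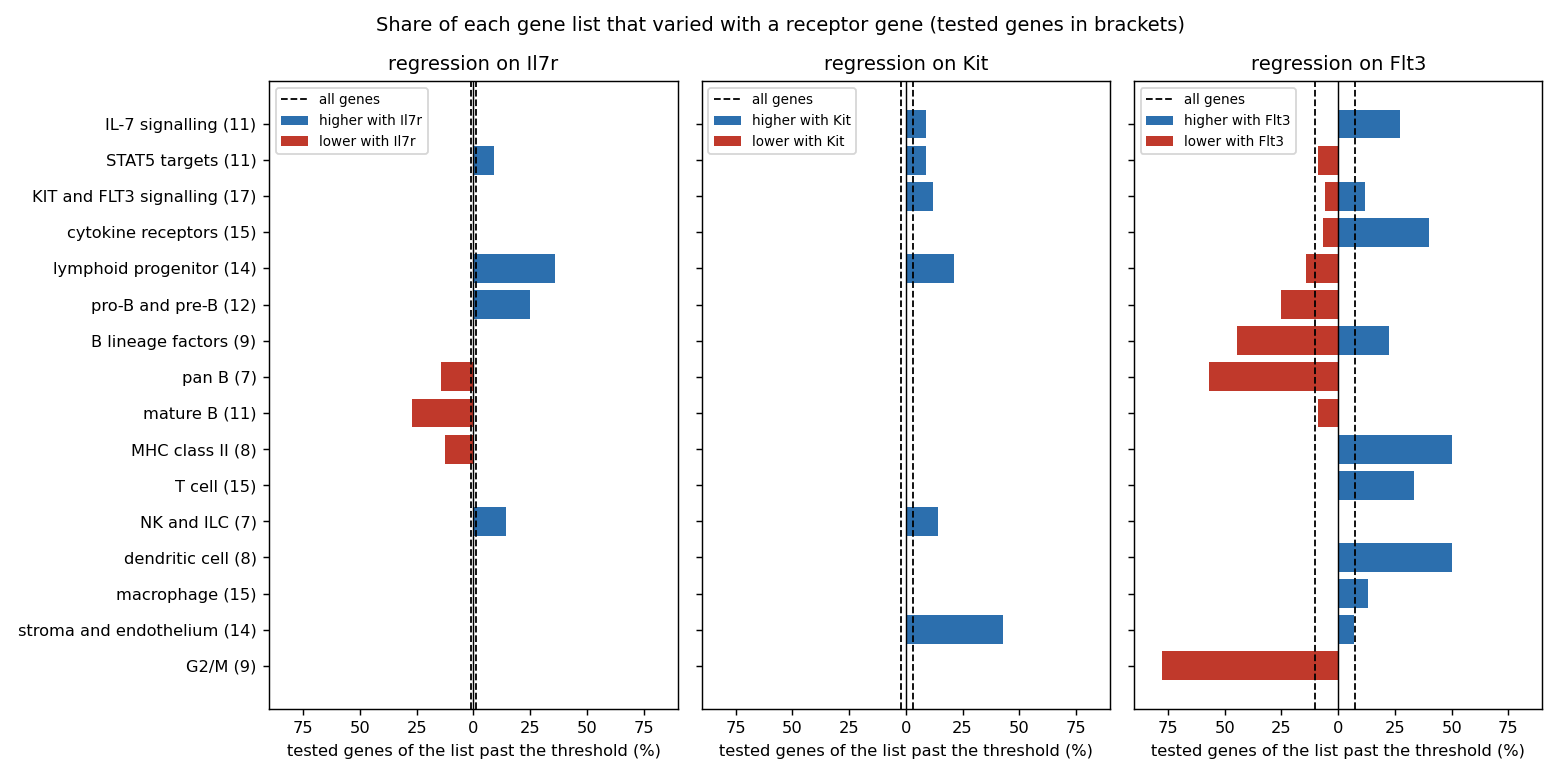
Percent of the tested genes of 16 lists (rows, number tested in brackets) that rose (blue, right) or fell (red, left) with Il7r, Kit and Flt3 over 43 lymphomas, with dashed lines at the percent of all genes. The longest bars are those of progenitor genes with Il7r (5 of 14 rose), stromal genes with Kit (6 of 14 rose) and G2/M genes with Flt3 (7 of 9 fell, 1 of them called without D92).

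The difference between Flt3 and the other 2 receptors was tested itself, in 1 fit with all 3 as predictors in SD units and the contrast of the Flt3 slope minus the mean of the Il7r and Kit slopes. Of 8616 genes 409 had a higher slope on Flt3 (4.75%) and 386 a lower one (4.48%), against 207 and 701 without the set covariate. At the upper end stood Septin3, Eepd1, Ppfia4, Fads3, Irf8, Fut7, Cd7 and Cd4, and at the lower end Cd79a, Cd24a, Sdc4, Fam43a, Pou2af1, Nmi, Mgst1 and Zfpm1. Cd79a changed by -0.93 per SD of Flt3, 0.03 per SD of Il7r and -0.04 per SD of Kit, a contrast of -0.93 ± 0.08 (adjusted p = 7.72e-10). Irf8 changed by 0.72 per SD of Flt3, -0.22 per SD of Il7r and 0.03 per SD of Kit, a contrast of 0.82 ± 0.10 (adjusted p = 7.28e-07). Pou2af1 changed by -1.02 per SD of Flt3 and 0.28 per SD of Il7r, a contrast of -1.16 ± 0.16 (adjusted p = 2.1e-06).

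By list, 6 of 12 pro-B and pre-B genes had a lower slope on Flt3 and 0 a higher one, with a median contrast of -0.83 against -0.01 for all genes. Lower contrasts were also called for 3 of 7 pan B genes and 4 of 9 B lineage factors, where Bcl11a and Tcf4 were higher. Higher contrasts were called for 3 of 15 T cell genes (Cd4, Cd8b1 and Cd28), 2 of 8 dendritic cell genes (Batf3 and Itgax) and 2 of 8 MHC class II genes (H2-Ab1 and H2-DMa). In the progenitor list 3 of 14 had a lower slope on Flt3 and 0 a higher one, and in the mature B list 0 of 11 were called. Without D92 the counts were 341 and 315, and 210 and 195 of those genes were among the earlier calls.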

How the data were processed

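The authors deposited log2 values, summarised per probe set by RMA (affy package), per the submitters' processing notes, which give no versions. The table held 22690 probe sets (64 controls) and 0 missing values. Members, lists and tests were chosen with earlier results of these data known. Of the probe sets, 20380 had 1 symbol. The one with the highest mean over all 44 arrays, the spleen included, stood for each gene.

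Genes were fitted with limma 3.58.1 (lmFit, eBayes with trend, R 4.3.3) with the column set as covariate, two-sided, with Benjamini-Hochberg adjustment over all kept genes at 0.05. In the spleen fit the spread comes from the lymphomas. In relations, values were centred within sets and permuted within sets (100000 permutations, or all 5040 orders for 7 lymphomas), two-sided. A measure was treated as 2 components (mclust 6.1.1) at a BIC gain over 10, Ashman D over 3 and at least 3 lymphomas in each. The NK and G2/M scores and Kit met this, and r was taken in the larger component. Scores are means of set-centred kept genes. The mast cell list kept 1 gene, so no relation was tested for it.

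Named genes were the 10 most positive and 5 most negative t per receptor, 8 at each end of the contrast, up to 4 genes per list by the largest t, all genes of the signalling and cytokine receptor lists, and Myc. Other genes of lists were named to complete counts, after their values were seen. Alternatives concerned the set, probe sets, scaling, filter, eBayes, array weights (statmod 1.5.0), ranks, T cell and macrophage scores, the 3' minus 5' control difference and lymphomas left out. Leaving out D161 or D92 was chosen after seeing the data. The pipeline was tested on simulated data. The number of arrays limits the precision. No pair of arrays was identical (highest r 0.9914).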

Additional observations from a re-analysis of the deposited data

Results flagged for a closer look

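Lymphoma D161 stood apart from the other lymphomas of set 2 in both Kit probe sets, by a test for 1 extreme value among 7 samples, which chance meets in about 1 of 20 groups. Kit was 8.55 in D161 by 1452514_a_at, where the gap to the next lymphoma was 0.897 of the whole range, and 5.62 by 1415900_a_at, where it was 0.832, both above the limit for 7 samples. Its Il7r of 12.02 was the highest of all lymphomas, with a ratio of 0.374 that did not pass. The 2 probe sets read the same gene and RNA. The same test was not passed by Flt3 in set 2 (0.223), and it was not applied to the 36 lymphomas of set 1.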

How the results depend on the processing

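Il7r and Flt3 in the spleen stayed uncalled under all 11 alternatives (differences -1.66 to -0.92 and -0.45 to 0.04), and Kit stayed higher (1.41 to 3.86) and called in 10. With the 7 set 2 lymphomas alone it was 2.51, not called (adjusted p = 0.183, against 4.61e-06 to 0.183 over its alternatives), where fewer samples give the spread. The 3 pairs of receptors stayed uncalled under 11 alternatives each. In all, 142 values of these results and of the gene and relation counts kept their call or stayed within 1.5 times, and 66 counts moved further. The cause was not tested. The number of arrays, 1 for the spleen, and the low Kit levels limit these results. No paired analysis was possible because the groups share no replicate numbers.

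Counts are given as higher and lower. Without the set covariate the spleen had 1207 and 41, Il7r 66 and 18, Kit 5938 and 21, Flt3 127 lower, and the contrast 207 and 701, and 11 relations passed. Kit with the G2/M score then turned to r = 0.782 (adjusted p = 6e-04). In set 1 alone Il7r had 21 and 8, Kit 883 and 976, Flt3 408 and 411, the contrast 196 and 106, and 2 relations passed. In set 2 alone the spleen had 236 lower, and 0 relations passed. With T cell and macrophage scores held fixed Il7r had 380 and 285, Kit 164 and 85, Flt3 267 and 169, the contrast 246 lower, and 2 relations passed. With array weights the spleen had 1102 and 1347, Il7r 228 and 177, Kit 3 and 0, and Flt3 1008 higher. With ranks Il7r had 18 and 10, Kit 7 and 3, Flt3 213 and 231 and the contrast 58 and 44. With equal column medians the spleen had 776 lower and Kit 84 and 86. With the mean of probe sets Kit had 109 higher and 9 relations passed. Without the 4 lymphomas of lowest pan B score Kit had 53 and 14, Flt3 1011 and 1397, the contrast 620 and 790, and 9 relations passed. Without the 2 farthest lymphomas Il7r had 24 and 16, and 8 relations passed. Without D161 Il7r had 31 and 21 and Kit 908 and 1043. Without D161 or D92, 8 relations passed. Within the larger Kit component, Kit had 0 and 0, with 944 genes at an unadjusted p under 0.05 in limma.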

Other observations

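Germinal centre genes rose with Flt3. Of 3 tested genes 2 rose, against 7.26% of all genes, Bcl6, the germinal centre repressor, by 0.85 ± 0.20 (adjusted p = 0.00333, limma) and Gcsam by 0.92 ± 0.28 (adjusted p = 0.0184), and both passed without D92. The germinal centre score was 3.40 in D78 and 0.66 in D92, but -0.46 in D55 and -0.49 in D121. The contrast of Flt3 with Il7r and Kit was 0.57 ± 0.21 for Bcl6 (adjusted p = 0.0737) and 0.70 ± 0.30 for Gcsam (adjusted p = 0.14). In the ribosome biogenesis list 8 of 12 genes were lower in the spleen, against 5.79% of all genes, and 2 of 12 fell with Flt3 (Nop58 and Nolc1), near the 10.1% of all genes that fell.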
